A study of Mus musculus with 5 samples.

Results

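A set of 9 genes that laboratories often use as level standards was followed in mouse embryos at the 2-cell stage. They were Gapdh, Hprt, Ppia, Tbp, B2m, Ywhaz, Gusb, Pgk1 and Tfrc. All 9 were found by symbol among the 32285 gene symbols of the deposited expression table. Eggs of superovulated females aged 6 to 9 weeks were fertilised in vitro with sperm of males aged 12 to 16 weeks. The zygotes were then kept for 24 h in KSOM, an embryo culture medium, to which either PNMC at 25 nM (3 libraries) or the same amount of its solvent DMSO (2 control libraries) had been added. The labels do not spell out PNMC, name the mouse strain or say how many embryos each library held. Nothing in them says that the libraries came from separate cultures, so each p-value reflects library-to-library spread alone, and that spread may be technical.

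A reference gene is a gene whose transcript is taken to stay level between samples, so that other transcripts can be read as ratios to it. The 2-cell stage is demanding for such a standard, because maternal transcripts are being cleared while the embryo starts to transcribe its own genome. In bulk libraries, fewer embryos or cells and less RNA per cell cannot be told apart, and a normalised table shows only the relative level of each transcript.

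All 15 listed oocyte and embryo markers were above the low-value filter. Their summed level was 13253 and 12890 under DMSO and 14252, 14103 and 14914 under PNMC. Of that sum Oog3 made 3569 and 2765 under DMSO and 4057, 4142 and 4263 under PNMC. The mean log2 value was higher with PNMC in 6 of the markers and lower in 9. Markers of other cell types were read too. Of 16 cumulus and granulosa markers, 5 (Ptx3, Inhba, Cd44, Amh and Foxl2) were listed at 0 in every library, and the list summed to between 23.7 and 33.9, of which Amhr2 alone made 17.1 to 26.1. Of 14 sperm and spermatid markers, 3 (Prm1, Tnp2 and Smcp) were at 0 in every library. That list summed to between 133 and 163, of which Odf2 made 123 to 143. Of 13 blood and immune markers, 5 were at 0 in every library, and the sums were 14.8 and 25.8 under DMSO and 11.4 to 13.4 under PNMC. Most of that sum came from Cd74, at 3.21 to 12.8, Hba-a1, at 4.57 to 8.29, and Hba-a2, at 0.581 to 4.53.

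The 9 genes fall into 2 kinds by sequence, which is shown first because it bears on how reads are assigned to them. Genes with abundant germline transcripts often leave processed copies of their mRNA in the genome. A read from a stretch that is identical in a gene and its copy cannot be placed by sequence alone, and counting programs differ in whether they drop or share such reads. The sources used here do not say which setting the authors chose. One transcript of each gene was cut into all its overlapping words of 50 bases, and each word was looked up on both strands in the GENCODE M21 transcripts of every other gene. GENCODE M21 is annotated on GRCm38 and the submitters' processing notes name GRCm39, so the shares describe the reference and not the alignment itself.

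In Hprt, Tbp, Tfrc, B2m and Gusb, 0% of the words occurred in another gene. In Gapdh, Ppia and Pgk1, 100% of the words in the coding part occurred elsewhere, and in Ywhaz 93.4% did. Over the whole transcript, UTRs included, the shared part was 90.4% in Gapdh, 68.0% in Pgk1, 54.3% in Ppia and 31.1% in Ywhaz. Gapdh shared words with 222 other genes, 213 of them annotated as pseudogenes. Ppia shared words with 38 other genes, Pgk1 with 5 and Ywhaz with 3. With words of 100 bases the number of sharing genes fell to 86 for Gapdh and 17 for Ppia, and the coding part of Gapdh, Ppia and Pgk1 stayed 100% shared. A comparison set held 192 tested genes of the pathway, marker and other reference candidate lists, the members left out. Of these, 6.25% had at least 90% of their coding words shared and 56.8% had under 1% shared. Other reference candidates such as Actg1, H2afz and Rpl19, each at 100%, are part of that set.

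The first 60 coding bases of Gapdh and Ppia show how close the copies are. Each line is 5′ to 3′ from the GENCODE M21 transcripts (GRCm38), in lower case, with a base that differs from the reference gene in capitals. Gm7336 is a processed pseudogene that held 90.4% of the words of Gapdh and is not among the table's symbols, while Gm10358 and Gm3839 are copies annotated as protein-coding that have rows of their own. Gm17494 is the gene with a row of its own that shared most words with Ppia.
Gapdh: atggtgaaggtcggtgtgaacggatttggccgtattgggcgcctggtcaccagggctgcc
Gm7336: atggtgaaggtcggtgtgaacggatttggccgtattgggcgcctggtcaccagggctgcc
Gm10358: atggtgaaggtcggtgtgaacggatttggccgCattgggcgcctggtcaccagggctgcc
Gm3839: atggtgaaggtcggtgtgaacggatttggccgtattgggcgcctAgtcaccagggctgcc
Ppia: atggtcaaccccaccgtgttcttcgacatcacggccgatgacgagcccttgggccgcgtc
Gm17494: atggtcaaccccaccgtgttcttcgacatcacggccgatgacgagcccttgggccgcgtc
Gm7336 matched Gapdh over all 60 bases, and Gm10358 and Gm3839 differed from it at 1 base each. Gm17494 matched Ppia over all 60 bases.

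**Figure D1:**
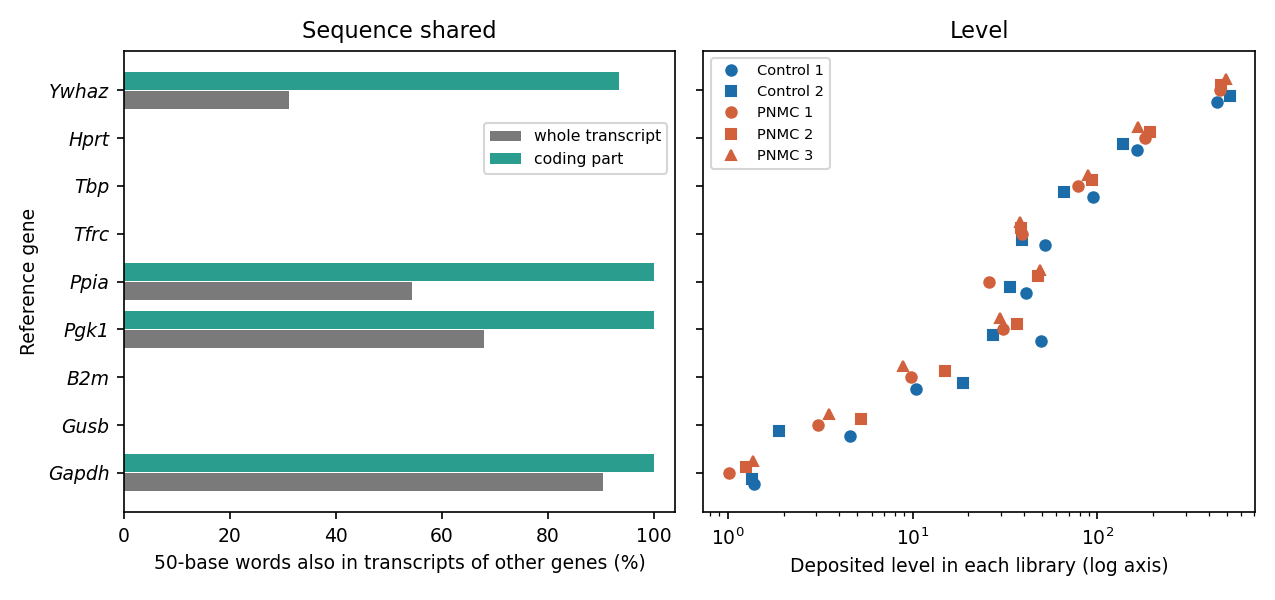
Left: share (%) of the 50-base words of each reference gene's transcript that also occur in transcripts of other genes, for the whole transcript and its coding part. Right: deposited level in each library (log axis), with 2 control and 3 PNMC libraries. Gapdh, with 90.4% of its transcript shared, has the lowest level, and Ywhaz, with 31.1% shared, the highest. Gusb and B2m, the next lowest after Gapdh, have 0% shared. The part of shared sequence in the levels was not tested.

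The deposited levels of the 9 genes spanned more than 2 orders on the log10 scale, from Ywhaz at a mean of 476 to Gapdh at 1.27. The values are normalised levels of unstated unit, and the sources used here do not say if they are already divided by transcript length. From the highest mean to the lowest the order was Ywhaz, Hprt, Tbp, Tfrc, Ppia, Pgk1, B2m, Gusb and Gapdh. In 6 of the 8 neighbouring pairs the 5 values of the higher gene all lay above the 5 values of the lower one. The exceptions were Tfrc with Ppia, whose means of 41.4 and 39.3 kept that order in 3 of 5 libraries, and Ppia with Pgk1 at 34.8, which also kept it in 3 of 5. If the values were not yet per length, dividing by transcript length would move Tfrc, with the longest transcript (4890 bases), from the fourth place to the seventh and would leave the first 3 and the last 2 genes in place.

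Ywhaz, which encodes the zeta member of the 14-3-3 adaptor proteins that bind phosphorylated partners, had the highest level on either scale. Its deposited levels were 441 and 519 under DMSO (control libraries 1 and 2) and 462, 463 and 494 under PNMC (libraries 1, 2 and 3, the order kept throughout). The PNMC values all lay between the controls, and only 97 genes of the table had a higher mean. Its coefficient of variation (CV, the SD over 5 libraries as a percent of their mean) was 6.44%, the smallest of the 9 over the 5 libraries. Tfrc was below it without control library 1 (1.17% against 5.66%) and Gapdh without PNMC library 1 (4.15% against 7.14%). After scaling to the geometric mean of the 9 genes, Ywhaz among them, the CV of Ywhaz was 15.3%.

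Hprt, an X-linked enzyme of purine salvage that returns hypoxanthine and guanine to the nucleotide pool, came next. Its levels were 165 and 138 under DMSO and 181, 192 and 165 under PNMC. The PNMC values all lay above both controls, though PNMC library 3 exceeded control library 1 by less than 1 unit. The CV was 12.1%, and 7.52% without control library 2.

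Tbp encodes the TATA-binding protein, the core of the TFIID complex that positions RNA polymerase II at promoters. Its levels were 94.2 and 66.0 under DMSO and 78.8, 93.3 and 89.4 under PNMC, with a CV of 14.2%, or 7.96% without control library 2. Control library 2 was the lowest and control library 1 the highest, so the groups overlapped.

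Tfrc, the transferrin receptor that carries iron into the cell, had the closest agreement among the PNMC libraries. Its levels were 52.1 and 39.3 under DMSO and 38.9, 38.4 and 38.3 under PNMC. Control library 1 stood above the other 4, and without it the CV over the remaining libraries fell from 14.5% to 1.17%. Both controls lay above all PNMC values, control library 2 by less than 1 unit.

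Ppia, or cyclophilin A, a peptidyl-prolyl isomerase that assists protein folding, varied mainly within the PNMC group. Its levels were 41.1 and 33.7 under DMSO and 25.8, 47.4 and 48.7 under PNMC. PNMC library 1 was the lowest of the 5, and the highest PNMC value was 1.89 times the lowest. The CV was 24.4%, and 16.0% without PNMC library 1.

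Pgk1, the X-linked glycolytic kinase that makes ATP from 1,3-bisphosphoglycerate, varied mainly within the controls. Its levels were 49.3 and 27.1 under DMSO, a ratio of 1.82, and 31.0, 36.6 and 29.9 under PNMC. The controls enclosed every PNMC value. The CV was 25.4%, and 12.8% without control library 1.

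B2m, beta-2 microglobulin, is the light chain that MHC class I molecules need to reach the cell surface. Its levels were 10.4 and 18.8 under DMSO and 9.83, 15.0 and 8.87 under PNMC, with a CV of 33.5%. Control library 2 was the highest and PNMC library 3 the lowest. The summed blood and immune markers were also highest in control library 2, at 25.8 against 11.4 to 14.8 in the other libraries, and their part in the B2m values was not tested.

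Gusb, the lysosomal beta-glucuronidase, was low and varied widely. Its levels were 4.56 and 1.90 under DMSO and 3.06, 5.27 and 3.52 under PNMC. Control library 2 was the lowest, the highest value was 2.78 times the lowest, and the CV was 35.9%, above the 33.5% of B2m. That order turned without control library 2 (24.4% against 24.9% for B2m) and without PNMC library 2 (33.9% against 38.4%). It also turned after scaling to the 9 reference genes, which include Gusb and B2m themselves (27.1% against 37.6%).

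Gapdh, the glycolytic dehydrogenase acting just before Pgk1 in the pathway, was the lowest of the 9. Its levels were 1.38 and 1.35 under DMSO and 1.01, 1.26 and 1.37 under PNMC. PNMC library 1 was the lowest, the groups overlapped, and the CV was 12.3%, or 4.15% without that library. It stood at rank 11353 of the table by mean level. Beside that level stand the 90.4% of its transcript shared with other genes and the 9.6% found in no other gene. The table has rows for 9 of the 222 sharing genes, and their levels summed to at most 2.46 per library. Among them Gm10358 was at 0.682 to 1.04 and Gm3839 at 0.198 to 0.722. The part of shared sequence in the Gapdh level was not tested, and within these files the level cannot be read as that of the intact gene. The same holds, to a smaller share of the transcript, for Ppia, Pgk1 and Ywhaz. For Ppia the 4 sharing genes with rows summed to between 3.45 and 7.61 per library.

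**Figure D2:**
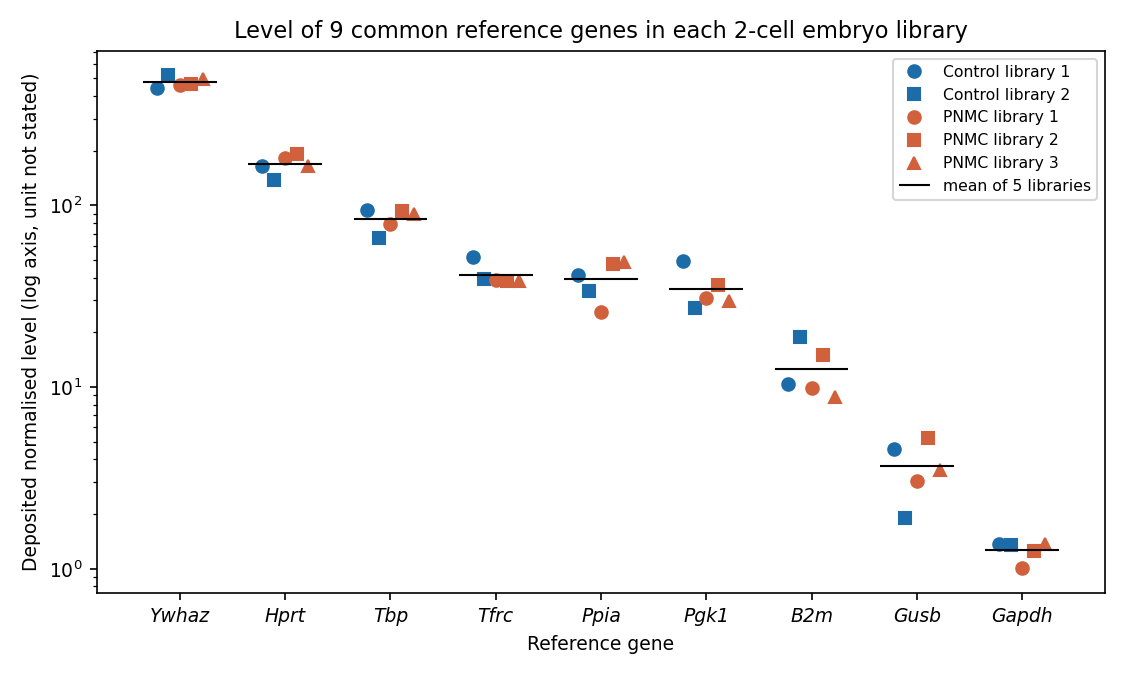
Deposited level of each reference gene (log axis, unit not stated) in 2 control and 3 PNMC libraries, ordered by the mean of 5 libraries (black lines). Levels run from 1.01 for Gapdh in PNMC library 1 to 519 for Ywhaz in control library 2, and the control and PNMC symbols are intermixed in 7 of the 9 genes.

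A spread means little without the level, because low values vary more, so the CV of each gene was set beside those of all tested genes whose mean lay within 1.5-fold of its own. Tested genes are the 12734 that reached 1 in 2 or more libraries, a filter that all 9 passed. For Ywhaz, 30.9% of 97 such genes had a lower CV. For Tfrc the share was 53.8% of 1453 genes, for Gusb 57.5% of 2402, for Hprt 65.3% of 450 and for Tbp 66.6% of 901. Ppia, Pgk1 and B2m were more variable than most genes of their level: 91.0% of 1483, 90.8% of 1576 and 88.9% of 2186 genes had a lower CV. Gapdh was at the other end, with 9 of 2141 genes, or 0.42%, lower, against a median CV of 53.4% at that level. Its window reaches below the filter value of 1. There the filter removes genes that stay under 1 and keeps variable genes of the same mean, so this share flatters Gapdh to an unknown extent.

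**Figure D3:**
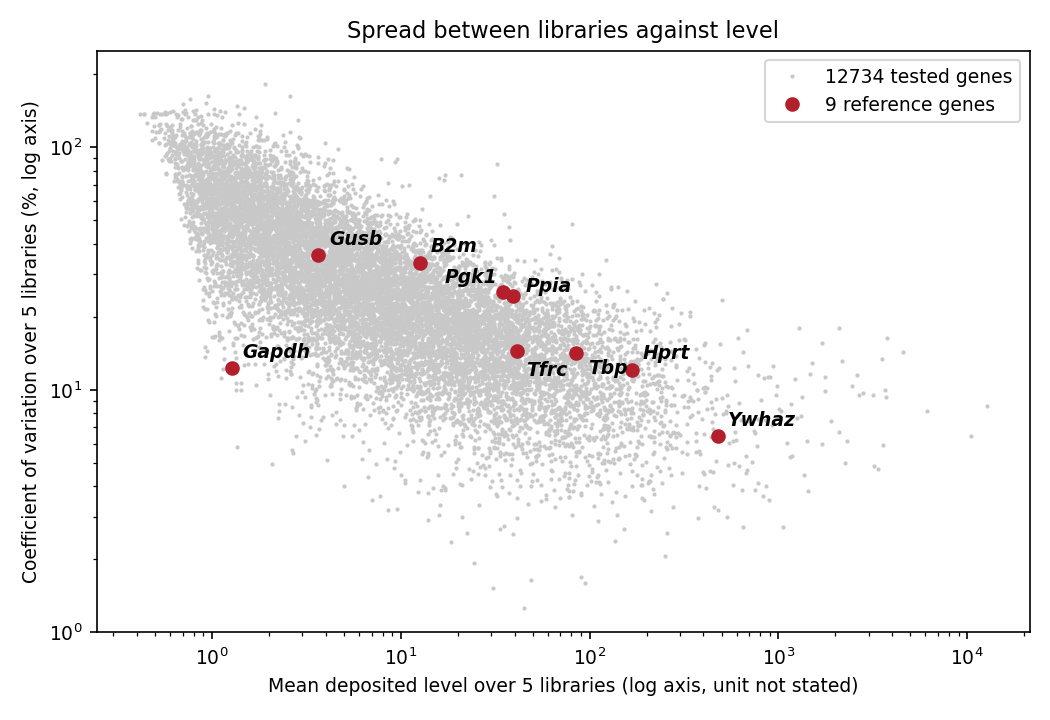
Coefficient of variation over 5 libraries (%, log axis) against mean deposited level (log axis) for the 12734 tested genes (grey) and the 9 reference genes (red). Ppia, Pgk1 and B2m lie in the upper part of the cloud at their level, Ywhaz in the lower part, and Gapdh below almost all genes of its level.

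Reference genes are usually chosen by how constant their ratio to each other is. For each pair, the SD over 5 libraries of the difference in log2(value + 1) was taken. The mean of a gene's 8 SDs, known as geNorm's M, is low for a gene that keeps its ratio to the others. M was 0.277 for Tbp, 0.281 for Gapdh, 0.305 for Tfrc, 0.309 for Hprt and 0.326 for Ywhaz. Pgk1 followed at 0.346, Ppia at 0.39, Gusb at 0.408 and B2m at 0.537. With a smaller pseudocount M rose for every gene, most for Gusb, to 0.522 at a pseudocount of 0.1 and 0.54 with none. For Ppia it was 0.407 and 0.409, so the values above understate how far Gusb lies from Ppia. Tbp ranked between the first and the third place when each library was left out in turn or another pseudocount was used, and B2m ranked eighth or ninth. The middle of the order was less settled: Pgk1 took places from 1 to 7 and Ppia from 4 to 9. Without control library 2, M fell to 0.32 for B2m and to 0.259 for Gusb.

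The pair with the smallest SD was Gapdh with Ywhaz (0.118), followed by Hprt with Tbp (0.154). The offset of 1 compresses ratios of a gene as low as Gapdh. Without it the SD was 0.188 for Gapdh with Ywhaz and 0.156 for Hprt with Tbp, so the order of the 2 pairs turned. The widest pair was B2m with Gusb (0.706), which moved in opposite directions between the controls: B2m was higher and Gusb lower in control library 2. Hprt and Tbp were both lowest in that library, as were Pgk1 and Gusb, while Ywhaz and B2m were highest in it. Control library 2 also listed the most genes above 0, 18595 against 17408 to 17635 in the others, and the part of that in these values was not tested.

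**Figure D4:**
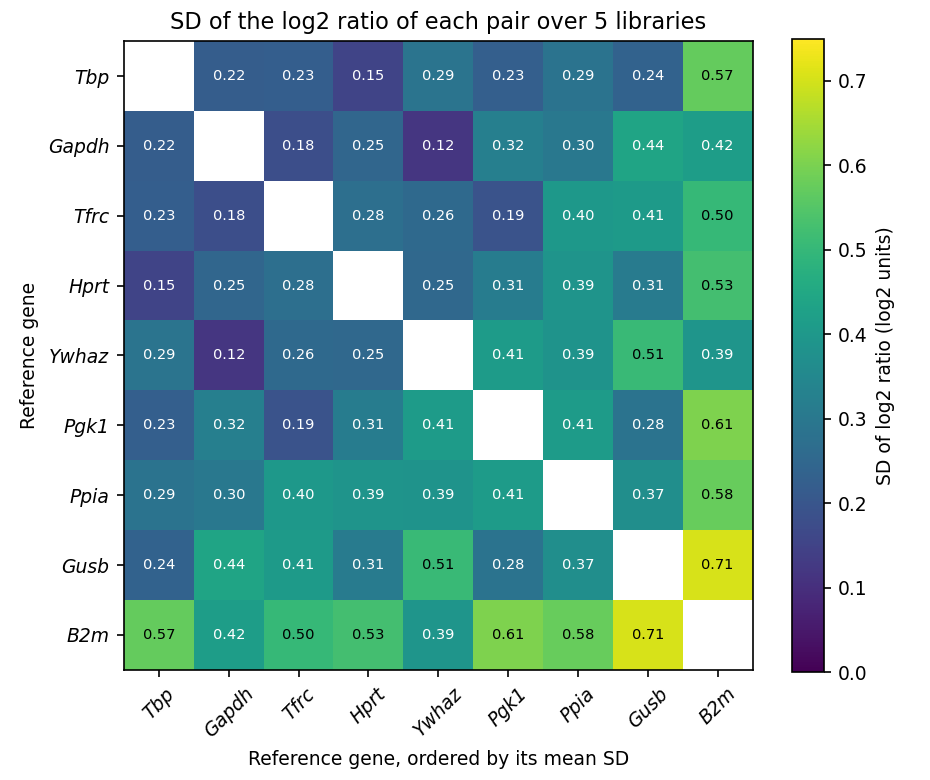
SD over 5 libraries of the difference in log2(value + 1) between each pair of reference genes, ordered by each gene's mean SD. Dark cells mark constant ratios (Gapdh with Ywhaz 0.118, Hprt with Tbp 0.154), and the B2m row and column are the brightest, up to 0.706 with Gusb.

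The choice of a single standard would set the scale of each library. Relative to its geometric mean over the 5 libraries, Ywhaz lay between 0.929 and 1.09, Hprt between 0.825 and 1.15 and Tbp between 0.79 and 1.13. Gusb ran from 0.549 in control library 2 to 1.53 in PNMC library 2, and B2m from 0.735 in PNMC library 3 to 1.56 in control library 2. Between control libraries 1 and 2 the factor from B2m went from 0.86 to 1.56 and the factor from Gusb from 1.32 to 0.549. The geometric mean of all 9 genes was steadier than Gusb or B2m alone but not than Ywhaz, at 1.108 and 0.912 of its average under DMSO and 0.885, 1.128 and 0.992 under PNMC.

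The comparison of the 2 groups asks whether any of the 9 moved with PNMC. Values were transformed to log2(value + 1) and compared over all 12734 tested genes with limma, with Benjamini-Hochberg adjustment. None of the 9 genes passed an adjusted p of 0.05 (limma adjusted p = 0.993 for each), against 0.0% of all genes tested. Over all genes 636 had an unadjusted limma p under 0.05, or 4.99%, and none of the 9 was among them. Limma without a variance trend and robust variances also called 0 genes, with 745 at the unadjusted threshold.

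The intervals show how large a difference these libraries leave room for. On the log2(value + 1) scale, PNMC minus control was -0.02 for Ywhaz (SE 0.112, 95% confidence interval -0.26 to 0.22), the narrowest interval of the 9. Hprt had the smallest p of the 9 (difference 0.25, SE 0.138, interval -0.05 to 0.55). For Tbp the difference was 0.14 (interval -0.24 to 0.52), for Ppia 0.07 (-0.47 to 0.61) and for Gusb 0.28 (-0.53 to 1.08). Lower estimates were found for Tfrc at -0.23 (-0.62 to 0.17), Pgk1 at -0.17 (-0.68 to 0.34), B2m at -0.33 (-0.97 to 0.32) and Gapdh at -0.10 (-0.92 to 0.73). The interval lay within 1 log2 unit in either direction for all of these but Gusb, and for 61.4% of all tested genes. For a gene as low as Gapdh the offset of 1 compresses the difference and its interval: the difference was -0.17 with an offset of 0.1 and -0.18 with none, so its interval does not bound the fold change closely. The same holds for Gusb, whose difference was 0.37 with an offset of 0.1 and 0.39 with none. Missing the threshold does not show that a gene was equal in both groups: the interval of Tfrc, for example, runs from a PNMC level of 0.65 times the control to 1.12 times.

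The PNMC and control values did not overlap in 2 of the 9 genes, against 19.9% of all tested genes. Hprt was higher in PNMC, as were 7.97% of all tested genes without overlap, and Tfrc was lower, as were 11.9%. Both gaps rest on a difference of less than 1 unit between neighbouring libraries. The direction turned on 1 library in 6 genes. Without control library 2, the difference was -0.11 for Tbp, 0.07 for B2m, -0.19 for Gusb, 0.10 for Ywhaz and -0.07 for Ppia. For Ppia it was also -0.07 without PNMC library 2 and -0.09 without PNMC library 3, and without control library 1 it was 0.25 for Pgk1. Where 1 control is left out, limma takes the remaining control to vary like the PNMC libraries.

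**Figure D5:**
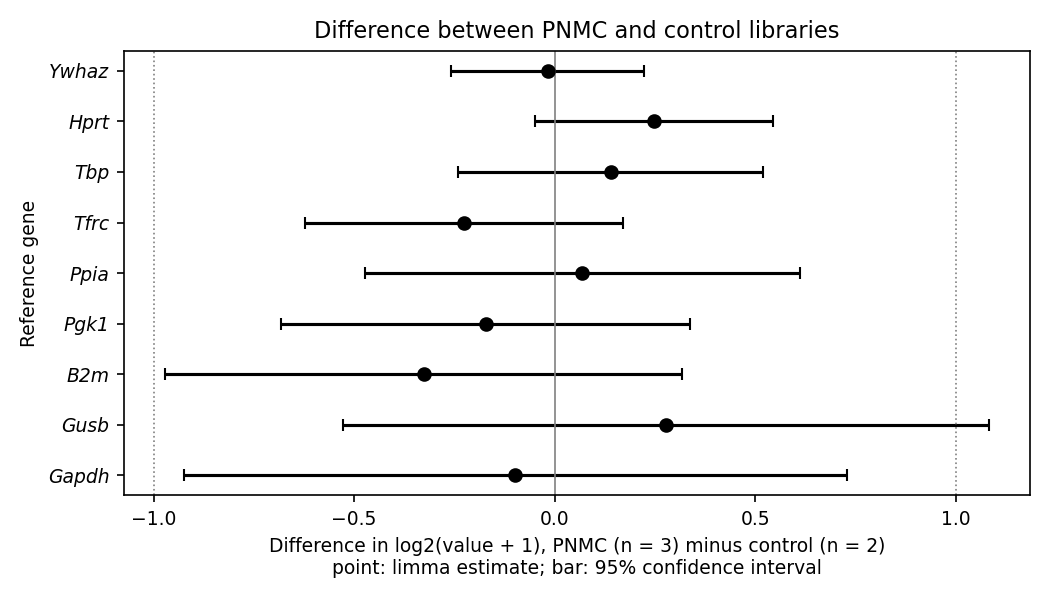
Difference in log2(value + 1) between PNMC (n = 3) and control (n = 2) libraries for each reference gene, with limma's 95% confidence interval; dotted lines mark 1 log2 unit. Every interval includes 0, and it is narrowest for Ywhaz (-0.26 to 0.22) and reaches 1.08 for Gusb.

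Other candidates for a standard were read from a list of 38 tested genes. None of them passed the adjusted threshold. Their mean log2 value was higher with PNMC in 12 and lower in 26, and the median difference was -0.08 against -0.05 over all tested genes, and 2 had an unadjusted limma p under 0.05. Ubb, a polyubiquitin gene, had the highest deposited level, at 1226 and 1237 under DMSO and 1116, 1222 and 1002 under PNMC. Its PNMC values all lay below both controls, as in 11.9% of all tested genes. Rab7, a small GTPase of late endosomes, was at 767 and 862 under DMSO and 944, 808 and 1011 under PNMC. H2afz, the histone variant H2A.Z often used as a standard in mouse embryos, had levels of 248 and 209 under DMSO and 147, 187 and 194 under PNMC. All 3 PNMC values lay below both controls (difference -0.38, limma adjusted p = 0.967), as in 11.9% of all tested genes. H2afz was named for its small p within the list. Its coding part was 100% shared with other genes. Chmp2a, of the ESCRT-III membrane-cutting machinery, was at 36.1 and 17.7 under DMSO and 18.7, 16.2 and 10.6 under PNMC.

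By SD of log2(value + 1), 4 of the 38 candidates varied less than Ywhaz, 20 less than Hprt, 25 less than Tbp and 34 less than B2m or Gusb. These counts do not match the candidates on level: at its own level 60.3% of genes had a lower SD than Gusb and 86.0% a lower SD than B2m. The 3 least variable were picked after their values were seen. Eef1a1, a translation elongation factor, was at 465 and 461 under DMSO and 495, 487 and 490 under PNMC. Its CV was 3.19%, and 72.6% of its coding words were shared. All 3 of its PNMC values lay above both controls, as in 7.97% of all tested genes (difference 0.08, limma adjusted p = 0.993). Hsp90ab1, a cytosolic chaperone, had a CV of 4.48% at a mean of 212, and Atp5b, the catalytic beta subunit of ATP synthase, 5.54% at 368. The coding words of these 2 were 5.2% and 1.0% shared. Actb, a cytoskeletal actin, had a CV of 19.7% at a mean of 124, and 93.5% of the genes of its level had a lower SD.

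Each member was also set beside the genes of its own pathway, whose lists were chosen with earlier results of these data known. The counts and medians of these lists include the members themselves. No gene of these lists passed the adjusted threshold. In the lists below, the count at an unadjusted limma p under 0.05 can be read against 4.99% of all tested genes. In glycolysis, home of Gapdh and Pgk1, 22 of 26 genes were tested, with 8 higher and 14 lower mean log2 values and a median difference of -0.10, and 4 had an unadjusted p under 0.05. Ldhb, a lactate dehydrogenase subunit, was at 945 and 1134 under DMSO and 1062, 943 and 1072 under PNMC. Pkm, pyruvate kinase, was at 241 and 212 under DMSO and 241, 243 and 261 under PNMC. Aldoa, the aldolase that makes the substrate of Gapdh, was at 216 and 209 under DMSO and 172, 173 and 168 under PNMC. Its PNMC values all lay below both controls (limma adjusted p = 0.967), as in 11.9% of all tested genes. Aldoa and Hk1 were named for having the smallest p of the list. In the transcript used for Aldoa, with a coding part of only 414 bases, none of the coding words were shared. Hexokinase 1, Hk1, was at 1.91 and 1.58 under DMSO and 0.0602, 0 and 0.835 under PNMC.

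Paralogues known from the testis were also read. Gapdhs, the sperm form of Gapdh, was listed at 0 in 4 libraries and at 0.0239 in control library 2. Pgk2, the retrogene of Pgk1 known from spermatogenesis, was at 5.15 and 6.78 under DMSO and 2.67, 5.00 and 0.0392 under PNMC, and none of its coding words were shared with other genes.

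Among the 14-3-3 genes all 7 were tested, and 3 had higher and 4 lower mean log2 values, with a median difference of -0.02 and 0 at the unadjusted limma threshold. Ywhae was at 333 and 348 under DMSO and 335, 295 and 327 under PNMC, with no shared coding words and a CV of 6.08%. Ywhaq ranged from 132 to 166 with 95.3% of its coding words shared, Ywhag from 76.8 to 105, Ywhab from 37.5 to 57.8 and Ywhah from 17.3 to 22.8. Sfn, the 14-3-3 sigma gene of epithelia, was at 13.7 and 22.2 under DMSO and 8.88, 15.7 and 10.3 under PNMC.

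Around Tbp, 21 of 22 genes of TFIID and the TBP family were tested, with 9 higher and 12 lower, a median of -0.01 and 1 at an unadjusted p under 0.05. Tbpl2, the TBP relative that replaces TBP in growing mouse oocytes, was at 28.7 and 41.0 under DMSO and 38.1, 31.7 and 39.7 under PNMC. Tbpl1, the TBP-like factor needed in spermatids, was at 18.6 and 16.8 under DMSO and 11.2, 16.1 and 15.9 under PNMC. Taf9b, at 92.5 to 119, and Gtf2a2, the small TFIIA subunit, at 92.4 to 130, had the highest deposited levels of the list, Tbp included. The smallest p values belonged to Taf2, at 5.45 and 5.68 under DMSO and 4.13, 2.39 and 2.06 under PNMC, and to Taf1, the largest TFIID subunit, at 5.29 and 4.34 against 2.46, 3.73 and 2.03.

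For Hprt, 19 of 20 purine genes in the table were tested, with 8 higher and 11 lower and a median of -0.03, and none had an unadjusted limma p under 0.05. Prps1, which makes the phosphoribosyl donor that Hprt uses, was at 302 and 207 under DMSO and 213, 348 and 215 under PNMC. Adss, an adenylosuccinate synthase, ranged from 165 to 210. Aprt, the salvage enzyme for adenine, ranged from 18.7 to 29.9, and Adsl, adenylosuccinate lyase, from 20.5 to 33.3.

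Among the cyclophilins around Ppia, 15 of 16 were tested, with 8 higher and 7 lower, a median of 0.05 and 1 at an unadjusted p under 0.05. Ppib, the form of the endoplasmic reticulum, was at 94.2 and 112 under DMSO and 77.8, 128 and 92.9 under PNMC. Ppih, of the spliceosome, ranged from 28.1 to 58.0 with 100% of its coding words shared. Ppil1 was at 20.1 and 14.0 under DMSO and 4.94, 8.49 and 14.6 under PNMC, and Ppil3 ranged from 0.94 to 5.37.

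The genes of MHC class I presentation surround B2m. Of the 27 with a row, 14 were tested, 3 higher and 11 lower, with a median of -0.32 and 1 at an unadjusted limma p under 0.05, and H2-M3 and Nlrc5, the class I transactivator, were listed at 0 in every library. The heavy chains H2-K1 and H2-D1 had the smallest p of the list. H2-K1 was at 7.88 and 9.82 under DMSO and 4.57, 6.70 and 5.16 under PNMC. H2-D1 was at 4.44 and 4.23 under DMSO and 1.55, 1.88 and 2.77 under PNMC (limma adjusted p = 0.967). The heavy chains did not share a direction. Of the 6 tested of 10 listed, these 2 had all PNMC values below both controls (11.9% of all tested genes did), 2 had them above both controls (7.97% did) and 2 overlapped. H2-T22 was at 11.8 and 8.55 under DMSO and 12.0, 17.0 and 12.1 under PNMC, and H2-Q7 was at 0.453 and 0.785 against 1.56, 1.05 and 0.956. H2-Q6 ranged from 1.60 to 5.99 and H2-Q10 from 0.521 to 1.56. Heavy chain genes are close in sequence, so the split of reads between them is uncertain. The summed blood and immune markers were also lower in all PNMC libraries than in either control, and their part in these values was not tested. The highest deposited levels were those of the chaperones Pdia3, at 74.7 to 107, and Calr, at 66.7 to 108, which serve many other proteins.

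Of the lysosomal hydrolases around Gusb 26 of 29 were tested, with 17 higher and 9 lower, a median of 0.06 and 0 at the unadjusted limma threshold. The cathepsins Ctsb, at 50.2 to 57.2, and Ctsl, at 38.5 to 69.0, had the highest deposited levels, and the CV of Ctsb was 5.38%. Smpd1, acid sphingomyelinase, ranged from 9.52 to 18.2 and Galns from 2.15 to 5.36.

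In the iron list with Tfrc, 16 of 21 genes were tested, with 5 higher and 11 lower, a median of -0.13 and 1 at an unadjusted p under 0.05. The ferritin chains had the highest deposited levels. Fth1 was at 211 and 344 under DMSO and 198, 250 and 225 under PNMC, and Ftl1 ranged from 194 to 258 with 91.4% of its coding words shared. The metal transporter Slc39a8 was at 8.13 and 3.20 under DMSO and 2.08, 0.739 and 2.28 under PNMC (limma adjusted p = 0.967). Pcbp1, a poly(C)-binding protein that carries iron to ferritin, ranged from 17.3 to 34.0.

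The gene most like each member was found as the one with the smallest mean absolute difference in log2(value + 1) over the 5 libraries. Tfrc was matched most closely, by Rad17 (0.0361), whose level, like that of Tfrc, was highest in control library 1 (53.2). Fxr1 was nearest to Tbp (0.0551), Wee2 to Ywhaz (0.0658), Mrpl14 to B2m (0.0774), Cbll1 to Pgk1 (0.0894) and Dhrs3 to Hprt (0.0975). Smim41 was nearest to Gusb (0.109), Tdpoz1 to Ppia (0.119) and Pkhd1 to Gapdh (0.0523). With 5 libraries and 12734 genes such matches arise easily, and they are given as a description.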

How the data were processed

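Per the labels' protocols, 2-cell embryos were lysed for total RNA in TRIzol, and sequencing libraries followed the Smart-seq2 scheme. Strand handling is not stated. Tools listed in the submitters' processing notes, without roles, are DESeq2 1.16.1, HTSeq, HISAT2 2.0.5 and Trimmomatic, and the build is GRCm39. The authors deposited 1 table of normalised signal per gene symbol alone. The sources used here do not state its unit. Sums ran from 446010 to 454548 per library, low values showed no common step, and the depth is therefore unknown, so no counting interval is given.

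Columns were matched to samples by title. Genes that reached 1 in 2 or more libraries were kept (12734, with 19551 removed). Their log2(value + 1) was tested with limma 3.58.1 (R 4.3.3, trend and robust variances, no covariate, two-sided, Benjamini-Hochberg over all tested genes). The test was first run on simulated data. Spread, ratios and shared 50-base words were computed in Python 3.11.15. The transcript of each gene was picked by preference for an APPRIS principal tag, then for a CCDS tag and then for the best support level. Ties went to the longest coding part and last to the shortest transcript. Named genes were the members, the 2 with the highest mean level and the 2 with the smallest p of each pathway list, fixed paralogues and the nearest gene to each member. Alternatives were a pseudocount of 0.1, no filter or a minimum of 10, median, quantile or reference-gene scaling, plain limma, a replicate block and leaving out each library; words of 100 bases, no pseudocount for the ratios and levels divided by length were added after seeing the data. Members and lists were chosen with earlier results of these data known.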

Additional observations from a re-analysis of the deposited data

How the results depend on the processing

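The count of genes called was 0 under every alternative tried except without PNMC library 1, where 1 gene, Gm13103, passed (log2 difference -2.42, limma adjusted p = 0.0108). With 1 library left out it thus ranged from 0 to 1. Genes at an unadjusted p under 0.05 numbered 636, and from 210 (at least 10 in 2 libraries) to 926 (no filter). Of them 34.6% were higher in PNMC, against 57.6% after median scaling, 50.6% after quantile normalisation and 53.5% without control library 2. No member passed under any alternative.

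Among 115 recomputed differences of the members, 10 changed sign, and the cause was not tested. Ywhaz was at 0.069 after median scaling. With 1 library left out, the differences ranged from -0.135 to 0.099 for Ywhaz, -0.086 to 0.358 for Ppia, -0.114 to 0.392 for Tbp, -0.726 to 0.073 for B2m, -0.193 to 0.747 for Gusb and -0.591 to 0.248 for Pgk1. Gapdh, Hprt and Tfrc kept their sign, though Tfrc came to -0.03 without control library 1. A paired fit with a replicate block gave 0 calls (544 at the unadjusted threshold) and -0.086 for Ppia. PNMC library 3, which has no control of its number, drops out of that estimate. Same-numbered libraries did not deviate together (correlation across genes -0.058 for number 1 and -0.043 for number 2). With 2 controls, the deviation of control library 2 is the mirror image of that of control library 1. These values therefore cannot tell whether same-numbered libraries shared a culture or a batch. Mean levels stayed within 1 SD in all 72 recomputed values, which is no check of the levels. Leaving out 1 library cannot move a mean by 1 SD of the full set, and the scalings largely keep the average level by design. Scaled to the geometric mean of the 9 genes, the CV of Ywhaz rose to 15.3% and that of Tbp fell to 8.43%. Each gene is itself part of that mean, so these changes are partly built in and are not an independent check. Depth is unknown, so how far counting error sets the spread of Gusb and Gapdh cannot be given.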
